A study of Homo sapiens with 2 samples.

Results

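MicroRNA genes filled 32 of the 14914 rows in the deposited table of a CSTF2 RNA immunoprecipitation from HUH7 cells. They were taken by name: every symbol that starts with MIRLET, or with MIR followed by a digit. Of these rows, 21 carry the name of a microRNA hairpin and 11 end in HG, the suffix of a microRNA host gene. The name rule uses no measured value, but it was set with earlier results of these data known. The table itself holds only rows with enough reads in at least 1 library, as set out below.

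HUH7 is an established line of human hepatocellular carcinoma, and the labels name no treatment, genotype change or time point. The IP group is 1 library of RNA recovered with CSTF2, a protein of the cleavage stimulation factor that binds RNA and helps to form the 3' ends of mRNAs. The Input group is 1 library of input RNA from that line, and both were prepared by the same protocol. The comparison asks which RNAs came down with CSTF2, here for microRNA genes, and no mock immunoprecipitation was analysed here. With 1 library in each group there is no replicate error, no test and no p-value, and every difference describes these 2 libraries only.

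MicroRNAs are cut from longer transcripts. In the nucleus the Microprocessor, made of the nuclease DROSHA and its partner DGCR8, releases a short hairpin from the primary transcript. XPO5 carries the hairpin to the cytoplasm, DICER1 trims it to a duplex, and 1 strand is loaded into an Argonaute protein such as AGO2, where the seed (bases 2 to 8) pairs with target mRNAs. Most primary transcripts are made by RNA polymerase II, either as introns or exons of other genes or as dedicated noncoding host transcripts. In hepatocytes miR-122 is best known for its abundance, and miR-192 and miR-194 are also known from liver. The libraries were made from fragmented RNA copied with random hexamers, so a row measures fragments of hairpins, of host transcripts and of whatever overlaps them, and not the mature microRNAs.

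The library depths recovered from the deposited values were 3220045 reads in the IP and 9517885 reads in the Input. Reads recovered for the listed rows made 99.83% and 99.85% of these depths. RPKM divides a row's reads by its length and by the library depth. The ratios below are of IP RPKM over Input RPKM, and the range in brackets is the 95% interval by the exact conditional (Clopper-Pearson) method. Even read numbers were in excess, at 74.9% of the 6467 features with 1 to 19 IP reads and at 71.8% of the 3437 such features of the Input. Whether both reads of a pair were counted is not given in the sources used here, so a wider interval from halved reads, rounded up, is given too where it matters. Both kinds of interval cover counting error only, and PCR copies of a molecule cannot be told apart without molecular identifiers. Mitochondrial features took 61.8% of IP reads and 61.6% of Input reads. CSTF2 itself was at 487 RPKM in the IP and at 6.97 RPKM in the Input, a ratio of 69.9 (59.2 to 83.1). All 11 hepatocyte markers of a list were present, at 4.25 to 311 RPKM in the Input, as were 2 of 4 blood and immune markers and 2 of 5 stromal and endothelial markers, at 0.576 to 7.27 RPKM.

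The 32 rows are of 3 kinds, which their lengths tell apart. In 15 rows the length recovered from the deposited values, 53 to 180 bp, equals that of the annotated hairpin in GENCODE v29 (GRCh38), a release with 1881 miRNA genes. In 6 rows with a hairpin's name (MIR122, MIR29A, MIR302B, MIR568, MIR1539 and MIR6820) the length was 582 to 54537 bp, so they count a longer transcript than the hairpin. The 11 host rows were 1317 to 8500 bp long. Together the 32 rows took 800 reads (0.0248%) of the IP and 2471 reads (0.0260%) of the Input.

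The mature sequences below belong to hairpin rows that were 2-fold or more higher or lower and had a sequence, and to miR-122 as the best-known liver microRNA. They are RefSeq sequences (GRCh38.p14), found for 18 of the 21 hairpin-named rows, written 5' to 3' with the seed in capitals.
miR-1282 (row lower in the IP): uCGUUUGCcuuuuucugcuu
miR-648 (row without Input reads): aAGUGUGCagggcacuggu
miR-6819-3p (row without Input reads): aAGCCUCUguccccaccccag
miR-6819-5p (the other arm): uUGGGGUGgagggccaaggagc
miR-601 (row without Input reads): uGGUCUAGgauuguuggaggag
miR-1183 (row without Input reads): cACUGUAGgugauggugagagugggca
miR-4665-5p (row higher in the IP): cUGGGGGAcgcgugagcgcgagc
miR-4449 (row higher in the IP): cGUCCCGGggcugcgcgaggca
miR-122-5p (its row is a longer transcript): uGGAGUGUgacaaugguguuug
No seed was shared between any 2 of the hairpin-named rows with a mature sequence.

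Of the 21 hairpin-named rows, 18 averaged 1 RPKM or more over both libraries. On the log2(RPKM + 1) scale 7 of these 18 were 2-fold or more higher in the IP, 3 were 2-fold or more lower and 8 lay between. Over all 9880 features that averaged 1 RPKM or more, 9.88% were higher and 6.83% lower by that much (976 and 675 features, or 684 and 944 after centring on their median). Among the 176 of them no longer than 200 bp, 24.4% were higher and 46% lower, so wide differences were common in short rows. The median log2 ratio of the 18 rows was 0.62, against 0.17 for all features.

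Read depth splits this group. All 7 higher rows had under 20 reads in the IP and the Input together. Only 10 rows averaged 1 RPKM or more and had 20 reads or more. Of these, 0 were higher and 3 lower, and their median was -0.10. Over all 9175 features that met both limits, 632 were higher and 596 lower. The table holds rows that reach 1 CPM (a count scaled to library depth) in at least 1 library, which takes 4 IP reads or 10 Input reads. Of the hairpin-named rows, 10 reached it in the IP alone (13.3% of all features did) and 1 in the Input alone (6.02%). A row listed through the IP alone had to be high there. Only 9 hairpin-named rows averaged 1 RPKM or more and reached 1 CPM in both libraries. Of these, 0 were 2-fold higher and 2 were 2-fold lower, where all features of that kind gave 6.53% and 5.31%.

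**Figure D1:**
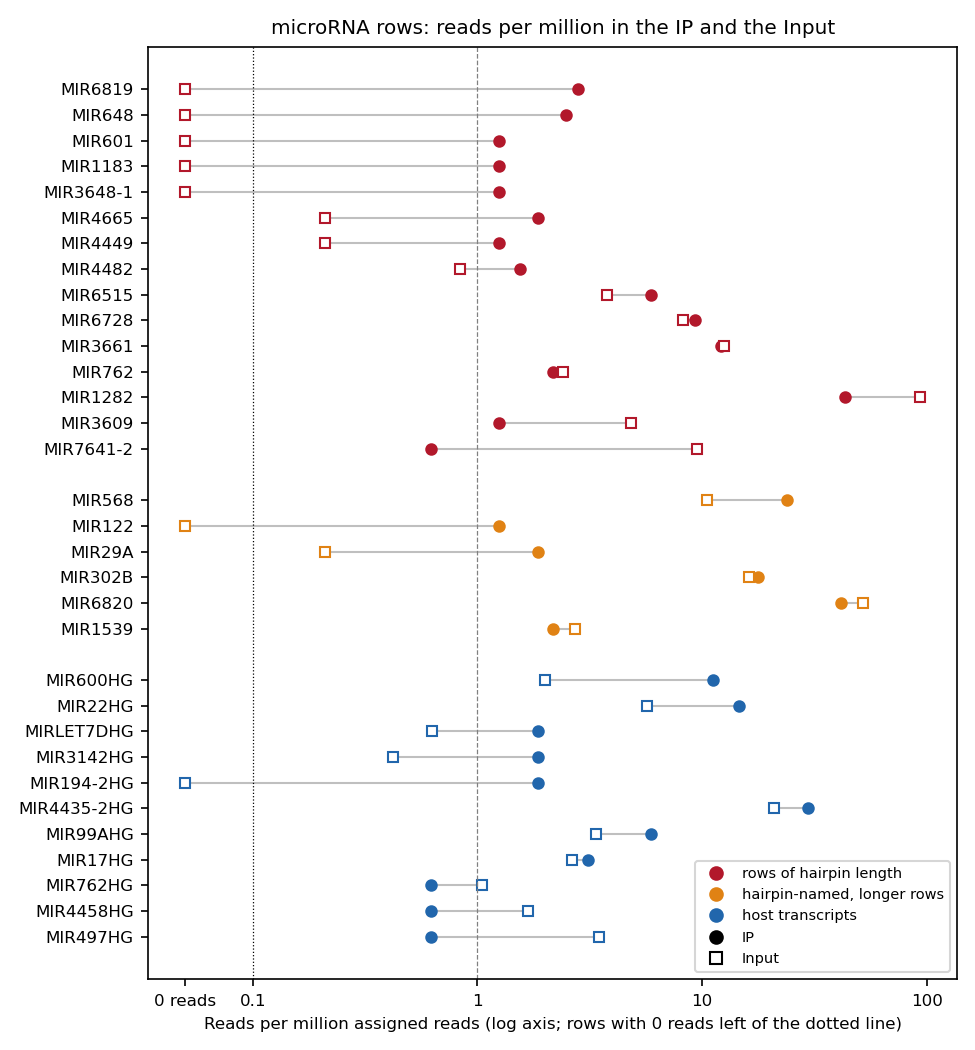
Depth-scaled reads (CPM, log axis) of each of the 32 rows in the IP (filled circles) and the Input (open squares), by kind of row, with rows at 0 reads drawn left of the dotted line and 1 CPM dashed. MIR1282 has the highest CPM in both libraries, and 7 rows had 0 reads in the Input.

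The hairpin rows that were lower in the IP had more reads behind them. MIR1282 (chromosome 15, 43793659 to 43793759, minus strand) was at 427 RPKM (139 reads) in the IP and at 928 RPKM (892 reads) in the Input. Its ratio of 0.461 (0.382 to 0.551) is 2.17-fold lower, and the halved-read interval of 0.355 to 0.598 also lies below 1. The hairpin lies wholly within coding sequence of SERF2, a small protein gene on the opposite strand. SERF2 was lower too, at 23.9 RPKM in the IP and at 44.9 RPKM in the Input, a ratio of 0.533 (0.486 to 0.583). No protocol says that the libraries kept strand, so reads of SERF2 mRNA and of MIR1282 cannot be told apart.

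MIR7641-2 (chromosome 14, 75604209 to 75604261, plus strand) was at 11.7 RPKM (2 reads) in the IP and at 178 RPKM (90 reads) in the Input. This was 15.2-fold lower (4.09 to 128), and the halved-read interval of the ratio, 0.00163 to 0.385, lies below 1. The hairpin lies inside RNA5SP387, a 5S ribosomal RNA pseudogene of 106 bp on the same strand, which was listed with the same 2 and 90 reads. The value of MIR7641-2 is therefore not separate from that of the pseudogene, and reads of near-identical ribosomal RNA copies may be shared among them. FLVCR2, a heme transporter family gene with an intron around both, was on the other side of 1, at 3.33 (1.14 to 9.90) on 9 and 8 reads.

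MIR3609 (chromosome 7, 98881650 to 98881729, plus strand) was at 15.5 RPKM (4 reads) in the IP and at 60.4 RPKM (46 reads) in the Input. It was 3.89-fold lower (1.42 to 14.9), although the halved-read interval of the ratio, 0.0294 to 1.04, includes 1. In GENCODE v29 the hairpin lies in an intron of TRRAP on the same strand, 245 bases from the next exon. The TRRAP row is 13218 bp long, against 19972 bp in that release. TRRAP, which encodes a scaffold of histone acetyltransferase complexes, was 2.26-fold higher (1.90 to 2.69), so the hairpin row and the gene around it lay on opposite sides of 1.

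Of the 7 higher hairpin rows, 5 had no read in the Input. MIR6819 (chromosome 22, 36286847 to 36286907, minus strand) was at 45.8 RPKM (9 reads) in the IP and at 0 in the Input. Its interval began at 5.83, and at 2.71 on halved reads. With its IP reads taken as exact and a floor of 3 reads set for the Input library, the upper limit that a count of 0 allows, it was at least 8.87-fold higher. Such floor values leave out the counting error of the IP, which the intervals include. It lies in an intron of MYH9, for nonmuscle myosin heavy chain, which was higher as well, at 122 RPKM in the IP and at 33.5 RPKM in the Input (ratio 3.64, 3.46 to 3.82).

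MIR648 (chromosome 22, 17980868 to 17980961, minus strand) was at 26.4 RPKM (8 reads) in the IP and at 0 in the Input. Its interval began at 5.05, and against the Input floor it was at least 7.88-fold higher. It lies in an intron of MICAL3, for an actin-oxidising enzyme, which was at 3.90 RPKM in the IP and at 0.794 RPKM in the Input (ratio 4.91, 4.05 to 5.98). For MIR6819 and MIR648 the lower ends of the halved-read intervals, 2.71 and 1.95, were above 1. No other hairpin-length row had a halved-read interval above 1. Both rows are among those listed through the IP alone, which had to be high there. MICAL3 and MYH9 had the highest ratios among the listed transcripts that overlap a hairpin-length row on the same strand. FLVCR2, around the lower row MIR7641-2, came next at 3.33.

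The other 3 rows without Input reads rested on 4 IP reads each, the fewest with which the table lists a row through the IP. MIR601 (chromosome 9, 123402525 to 123402603) was at 15.7 RPKM, MIR1183 (chromosome 7, 21471058 to 21471146) at 13.96 RPKM and MIR3648-1 (chromosome 21, 8208473 to 8208652) at 6.90 RPKM. Each was at least 3.94-fold higher against the Input floor, but the interval of each began at 1.95, and on halved reads it began at 0.555 and so includes 1. MIR601 lies in an intron of DENND1A, for an endocytic exchange factor, which was 2.11-fold higher (1.55 to 2.85). MIR1183 lies in an intron of SP4, for a zinc finger transcription factor with a ratio of 1.12 (0.714 to 1.71). No listed transcript overlaps MIR3648-1.

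The last 2 of the higher rows had 2 Input reads each. MIR4665 (chromosome 9, 6007826 to 6007904) was at 23.6 RPKM (6 reads) in the IP and at 2.66 RPKM in the Input, a ratio of 8.87 (1.59 to 89.8; halved reads 0.712 to 466). It overlaps 76 noncoding exon bases of KIAA2026 on the opposite strand, a gene with a ratio of 1.77 (1.09 to 2.84). MIR4449 (chromosome 4, 52712682 to 52712747) was at 18.8 RPKM (4 reads) in the IP and at 3.18 RPKM in the Input, and its ratio of 5.91 has an interval (0.847 to 65.4) that includes 1. It lies in an intron of DANCR, a long noncoding RNA, 33 bases before the next exon, and DANCR had a ratio of 0.698 (0.476 to 0.999).

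**Figure D2:**
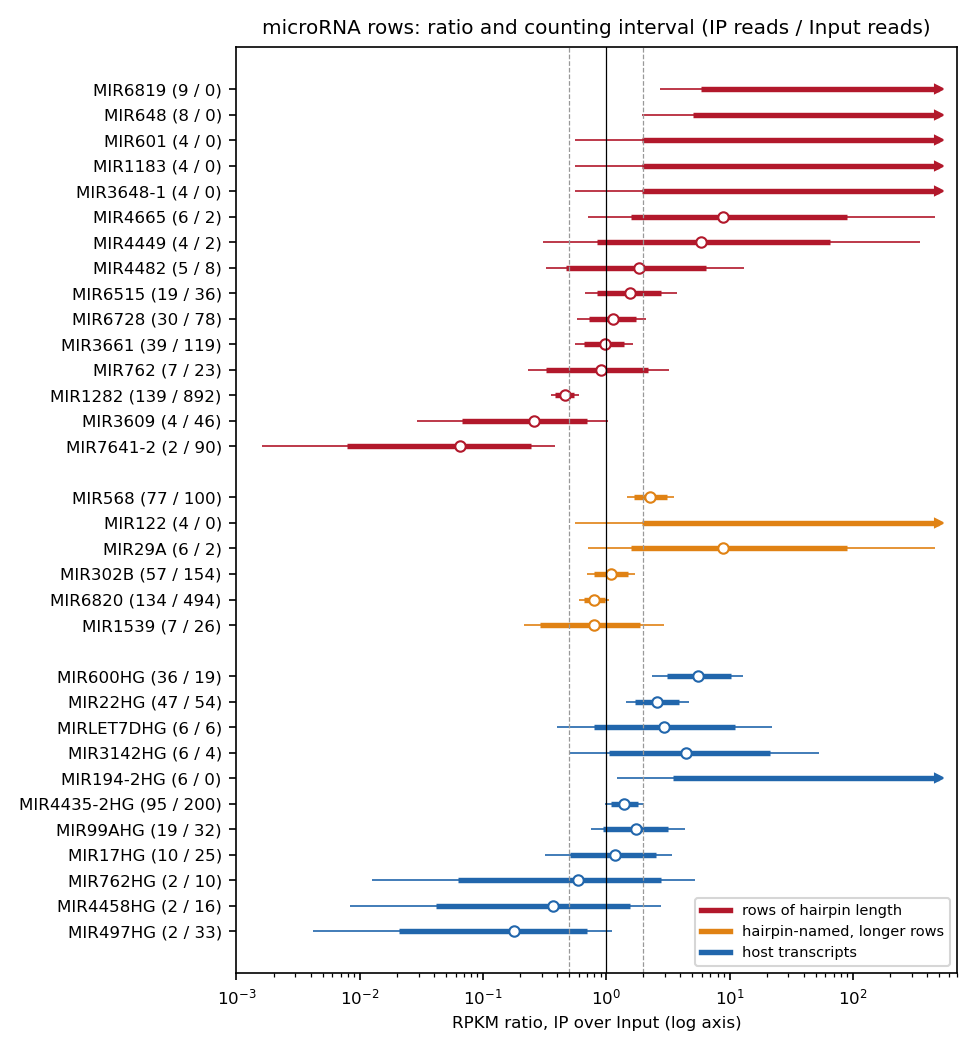
Ratio of IP to Input RPKM (log axis) of each row with its reads in the IP and the Input after the name, where thick bars are 95% intervals from reads, thin bars intervals from halved reads, arrows mark rows with 0 Input reads and dashed lines mark 2-fold. MIR1282 and MIR7641-2 lie below 1 with both bars, and MIR6819, MIR648, MIR568, MIR600HG, MIR22HG and MIR194-2HG above 1 with both.

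The remaining 5 hairpin-length rows differed by less than 2-fold, and all their intervals include 1. MIR3661 (chromosome 5, 134225757 to 134225852) was at 126 RPKM (39 reads) in the IP and at 130 RPKM (119 reads) in the Input, a ratio of 0.969 (0.657 to 1.40). It overlaps 93 coding bases of PPP2CA, the catalytic subunit gene of phosphatase PP2A, on the opposite strand, and PPP2CA had a ratio of 0.795 (0.663 to 0.949). MIR762 (chromosome 16, 30893903 to 30893985) was at 26.2 RPKM (7 reads) in the IP and at 29.1 RPKM (23 reads) in the Input. Its ratio was 0.900 (0.326 to 2.17), beside 0.648 (0.352 to 1.12) for BCL7C, a chromatin remodelling subunit gene whose exon covers it on the opposite strand. MIR4482 (chromosome 10, 104268336 to 104268405), which overlaps no other GENCODE v29 gene, had 5 and 8 reads and a ratio of 1.85 (0.476 to 6.40).

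MIR6515 and MIR6728 complete the list, and they share a trait with MIR6819 that the naming rule did not use. Each of these hairpins ends at the last base of an intron of its gene, on the same strand, with 0 bases between it and the next exon. MIR6820 does so too, although its row is a longer transcript. All 4 hairpins therefore close with the AG that ends the intron. They are printed whole to show this shared end, which their 3p arms also carry, 5' to 3' from RefSeq (GRCh38.p14), with the final AG in capitals.
MIR6515, chr19:12940484-12940540, plus strand, CALR intron: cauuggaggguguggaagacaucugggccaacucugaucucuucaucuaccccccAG
MIR6728, chr1:8866502-8866590, minus strand, ENO1 intron: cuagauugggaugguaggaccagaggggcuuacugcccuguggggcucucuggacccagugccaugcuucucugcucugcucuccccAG
MIR6819, chr22:36286847-36286907, minus strand, MYH9 intron: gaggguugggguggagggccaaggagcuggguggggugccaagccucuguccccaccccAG
MIR6820, chr22:37967563-37967624, plus strand, POLR2F intron: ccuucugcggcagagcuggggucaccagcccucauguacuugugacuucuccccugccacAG

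How many reads of these rows run on into the next exon was not tested. MIR6515 was at 104 RPKM (19 reads) in the IP and at 66.4 RPKM (36 reads) in the Input, a ratio of 1.56 (0.845 to 2.79). CALR, for the endoplasmic reticulum chaperone calreticulin, was at 606 RPKM in the IP and at 582 RPKM in the Input (ratio 1.04, 1.01 to 1.07). MIR6728 was at 105 RPKM (30 reads) in the IP and at 92.1 RPKM (78 reads) in the Input, a ratio of 1.14 (0.720 to 1.75). ENO1, for the glycolytic enzyme enolase, was at 54.5 RPKM in the IP and at 49.4 RPKM in the Input (ratio 1.10, 1.01 to 1.21). In RPKM, MIR6728 was above ENO1 in both libraries, whereas MIR6515 was below CALR in both. Rows of 89 and 57 bp are set there against rows of 3958 and 2714 bp. Reads shared with the next exon were not separated, so these values do not rank the levels of hairpin and mRNA.

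Base composition varied widely among the 16 hairpins with a RefSeq hairpin sequence. GC content ran from 32.8% in MIR29A to 86.4% in MIR4449. The rows at those ends had ratios of 8.87 and 5.91 on 8 and 6 reads in all. The MIR29A and MIR302B rows count longer transcripts (6670 and 771 bp), so their ratios are not those of the hairpins whose GC is given. The next toward the middle at each end had ratios near 1, with 1.09 for the MIR302B row, whose hairpin has 38.4% GC, and 0.900 for MIR762 at 85.5% GC.

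**Figure D3:**
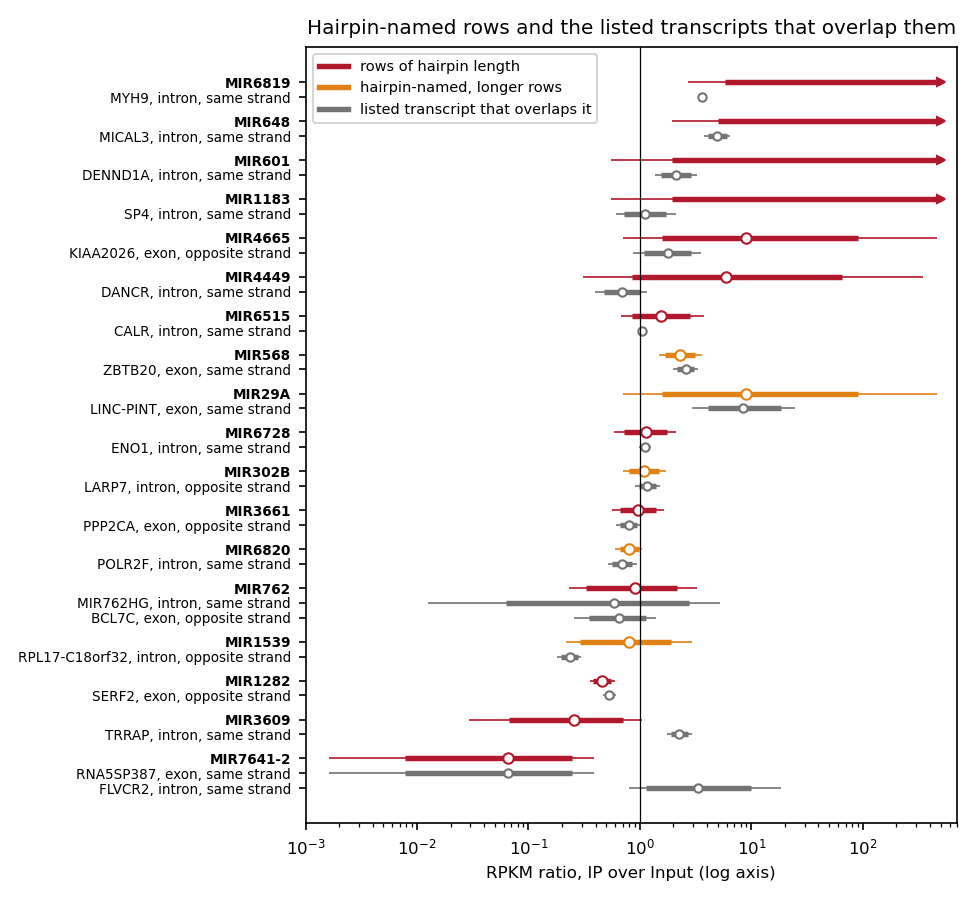
Ratio of IP to Input RPKM (log axis) of hairpin-named rows (bold) and, under each, of the listed transcripts that overlap it (grey), with intervals from reads (thick) and halved reads (thin), where arrows mark rows with 0 Input reads. MIR1282 (0.461) lies beside SERF2 (0.533), while MIR3609 (0.257) is set against TRRAP (2.26) and MIR7641-2 (0.0657) against FLVCR2 (3.33).

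Of the 6 hairpin-named rows that count longer transcripts, 3 averaged 1 RPKM or more, and none of those 3 was 2-fold higher or lower on the log2(RPKM + 1) scale. MIR568 (15213 bp; hairpin on chromosome 3, 114316475 to 114316569, minus strand) was at 1.57 RPKM (77 reads) in the IP and at 0.691 RPKM (100 reads) in the Input. Its ratio of 2.28 (1.67 to 3.09; halved reads 1.48 to 3.58) lay above 1 by both intervals, with a log2 value of 0.61 on the scale with the pseudocount. The hairpin lies in an exon of ZBTB20, a zinc finger repressor gene, which had a ratio of 2.58 (2.16 to 3.09). A noncoding gene of 15214 bp, AC093010.3, overlaps the end of ZBTB20 there and is the closest annotated length to this row.

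MIR302B (771 bp) was at 23.0 RPKM (57 reads) in the IP and at 21.0 RPKM (154 reads) in the Input, a ratio of 1.09 (0.793 to 1.49). The miR-302 microRNAs are known from embryonic stem cells. AC106864.1, a noncoding gene of 743 bp on the same strand without a row of its own, covers 45 bases of the hairpin with its exons. The hairpin also lies in an intron of LARP7, for a protein that binds 7SK RNA, on the opposite strand. LARP7 had a ratio of 1.17 (0.974 to 1.40).

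MIR6820 (54537 bp) was at 0.763 RPKM (134 reads) in the IP and at 0.952 RPKM (494 reads) in the Input, a ratio of 0.802 (0.657 to 0.972; halved reads 0.603 to 1.05). POLR2F, the RNA polymerase subunit gene that holds its hairpin, had a ratio of 0.694 (0.561 to 0.852). MIR1539 (582 bp) was at 3.74 RPKM (7 reads) in the IP and at 4.69 RPKM (26 reads) in the Input, a ratio of 0.796 (0.292 to 1.88). AC100778.3, a noncoding gene on the same strand without a row of its own, holds the hairpin in an exon and is also 582 bp long. RPL17-C18orf32, a readthrough of a ribosomal protein gene on the opposite strand, has the hairpin in an intron. It had a ratio of 0.234 (0.196 to 0.277).

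MIR122 and MIR29A rested on few reads. MIR122 (4594 bp; hairpin on chromosome 18, 58451074 to 58451158) was at 0.270 RPKM (4 reads) in the IP and at 0 in the Input. It was at least 3.94-fold higher against the Input floor, but its interval began at 1.95, and on halved reads at 0.555, which includes 1. The row of the liver microRNA was thus at the lower limit of the table in the IP and without a read in the deeper Input. MIR29A (6670 bp; hairpin on chromosome 7, 130876747 to 130876810) was at 0.279 RPKM (6 reads) in the IP and at 0.0315 RPKM (2 reads) in the Input, a ratio of 8.87 (1.59 to 89.8; halved reads 0.712 to 466). LINC-PINT, a long noncoding RNA whose annotation reaches 2 bases into that hairpin, had a ratio of 8.33 (4.08 to 18.4) on 31 and 11 reads.

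**Figure D4:**
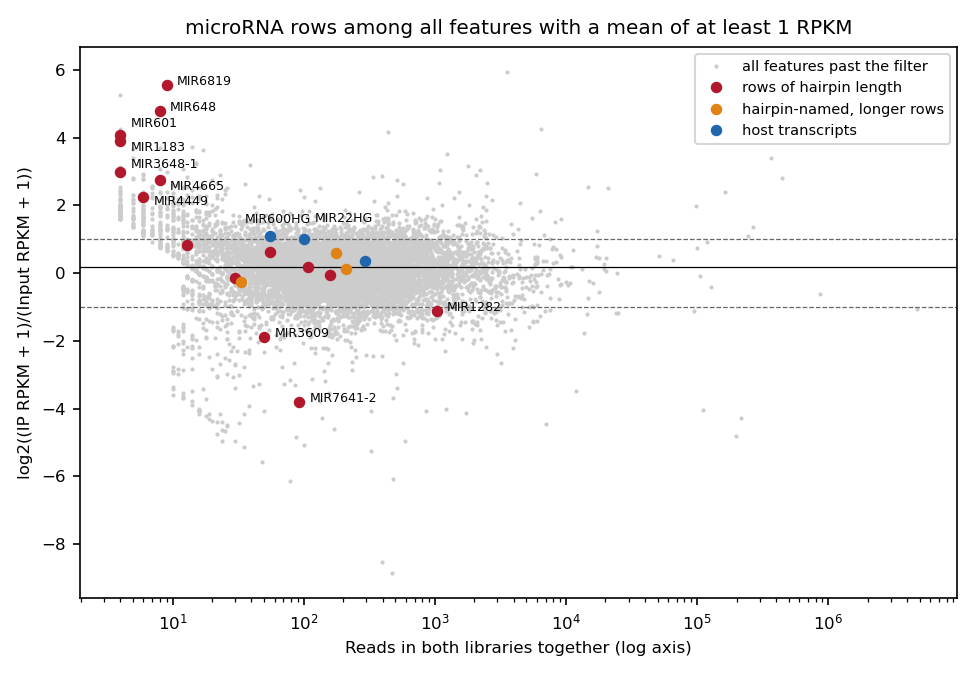
Log2((IP RPKM + 1)/(Input RPKM + 1)) against reads in both libraries together (log axis) for all features with a mean of 1 RPKM or more (grey) and the 21 microRNA rows among them (coloured), with the median of all features as a solid line and 2-fold as dashed lines. The 7 higher hairpin rows sit at the left edge with under 20 reads, and MIR1282, MIR3609 and MIR7641-2 lie below the lower dashed line.

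Of the 11 host transcripts, 6 had 20 reads or more and 3 averaged 1 RPKM or more. Of those 3, MIR22HG and MIR600HG were 2-fold or more higher on the log2(RPKM + 1) scale, MIR4435-2HG lay between and 0 were lower, against 9.88% and 6.83% of all features. By the interval from reads 5 of the 11 rows lay above 1 and 1 below, where 34.3% and 15.3% of the 14913 features with reads did. On halved reads 3 lay above and 0 below, against 22.7% and 9.28%. Of the host rows, 3 were listed through the IP alone (MIR194-2HG, MIR3142HG and MIRLET7DHG) and had to be high there, and the first 2 of these are among the 5 above 1.

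MIR22HG (chromosome 17, 1711493 to 1717174, minus strand) is the host of miR-22, whose hairpin lies in its exons. It was at 4.89 RPKM (47 reads) in the IP and at 1.90 RPKM (54 reads) in the Input, a ratio of 2.57 (1.70 to 3.88; halved reads 1.45 to 4.73). Its log2 value on the scale with the pseudocount was 1.02, just past 2-fold. WDR81, which overlaps it on the opposite strand with 0 exon bases in common, had a ratio of 4.09 (2.40 to 7.06).

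MIR600HG (chromosome 9, 123109494 to 123115477, minus strand), the host of miR-600, was at 1.87 RPKM (36 reads) in the IP and at 0.334 RPKM (19 reads) in the Input. Its ratio of 5.60 (3.13 to 10.3; halved reads 2.33 to 12.9) was the highest of the host rows with reads in both libraries. It overlaps STRBP, which encodes a double-stranded RNA-binding protein, and shares 254 exon bases with it on the same strand. STRBP had 60 and 261 reads and a ratio of 0.679 (0.504 to 0.903), so the host transcript and the gene it overlaps lay on opposite sides of 1.

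MIR194-2HG (chromosome 11, 64889560 to 64893449, minus strand) is the host of miR-192 and miR-194, with both hairpins in its exons. It was at 0.511 RPKM (6 reads) in the IP and at 0 in the Input. Its interval began at 3.48, and at 1.22 on halved reads, and against the Input floor it was at least 5.91-fold higher. MIR4435-2HG (chromosome 2, 111036776 to 111523376, minus strand) had the most reads of the host rows. It was at 3.47 RPKM (95 reads) in the IP and at 2.47 RPKM (200 reads) in the Input, a ratio of 1.40 (1.09 to 1.80), and the halved-read interval of 0.984 to 2.02 includes 1. In GENCODE v29 it shares 727 exon bases with BCL2L11, the gene of the apoptosis inducer BIM, on the opposite strand, which had a ratio of 2.86 (1.65 to 4.93). The MIR4435-2HG row is 8500 bp long, against 13094 bp in that release, so the bases shared by the row may differ.

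MIR3142HG (chromosome 5, 160438594 to 160487426) carries miR-146a, a microRNA known from inflammation, in an exon. It was at 0.810 RPKM (6 reads) in the IP and at 0.183 RPKM (4 reads) in the Input, a ratio of 4.43 (1.05 to 21.4; halved reads 0.508 to 53.1). MIR17HG (chromosome 13, 91347820 to 91354579) carries the 6 hairpins of the miR-17 to miR-92a cluster in its exons. It was at 0.889 RPKM (10 reads) in the IP and at 0.752 RPKM (25 reads) in the Input, a ratio of 1.18 (0.507 to 2.55). MIR99AHG (chromosome 21, 15928296 to 16645065) holds the hairpins of miR-99a, let-7c and miR-125b in its introns, and it had 19 and 32 reads and a ratio of 1.76 (0.940 to 3.19).

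The 3 host rows with a ratio below 1 had 2 IP reads each and were listed through the Input alone. MIR497HG (chromosome 17, 7015818 to 7019659, minus strand), the host of miR-195 and miR-497, was at 0.162 RPKM in the IP and at 0.902 RPKM (33 reads) in the Input. It was 5.58-fold lower (1.43 to 48.0), and the halved-read interval of the ratio, 0.00416 to 1.11, includes 1. It shares 1466 exon bases with C17orf49 and 618 with RNASEK-C17orf49 on the opposite strand, which were lower too, at ratios of 0.348 (0.122 to 0.810) and 0.235 (0.129 to 0.397). MIR4458HG (chromosome 5, 8450743 to 8463095) had 16 Input reads and a ratio of 0.369 (0.0412 to 1.57). MIR762HG (chromosome 16, 30875222 to 30895220), which holds MIR762 in an intron, had 10 Input reads and a ratio of 0.591 (0.0630 to 2.77).

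The microRNAs of these hosts fall into families by seed. The let-7 seed GAGGUAG occurs at 3 host loci, with let-7d inside MIRLET7DHG, let-7c inside MIR99AHG and miR-4458 inside MIR4458HG. MIRLET7DHG (LINC02603 in RefSeq GRCh38.p14, chromosome 9, 94176569 to 94259311) also has let-7a-1 and let-7f-1 just before its start. In MIR17HG, miR-17 shares a seed with miR-20a and miR-19a with miR-19b, and in MIR497HG miR-195 shares its seed with miR-497. The sequences (RefSeq, GRCh38.p14) show the seeds in capitals, with miR-22 and miR-600 added for the 2 higher hosts.
let-7d-5p (MIRLET7DHG): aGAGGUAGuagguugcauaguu
let-7c-5p (MIR99AHG): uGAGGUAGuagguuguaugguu
miR-4458 (MIR4458HG): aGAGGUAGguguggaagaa
miR-17-5p (MIR17HG): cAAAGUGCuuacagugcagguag
miR-20a-5p (MIR17HG): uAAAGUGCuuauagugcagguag
miR-19a-3p (MIR17HG): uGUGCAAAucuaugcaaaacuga
miR-19b-3p (MIR17HG): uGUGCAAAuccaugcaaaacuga
miR-195-5p (MIR497HG): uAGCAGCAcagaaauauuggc
miR-497-5p (MIR497HG): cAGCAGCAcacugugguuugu
miR-22-3p (MIR22HG): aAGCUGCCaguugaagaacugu
miR-600 (MIR600HG): aCUUACAGacaagagccuugcuc
MIRLET7DHG was at 1.41 RPKM (6 reads) in the IP and at 0.478 RPKM (6 reads) in the Input, a ratio of 2.96 (0.790 to 11.1). The ratios of the 3 host rows with the let-7 seed lay on both sides of 1, at 2.96, 1.76 and 0.369, and the interval of each includes 1.

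The genes of the microRNA pathway were better covered than the microRNA rows. Of a list of 51 symbols for biogenesis and silencing, 41 were listed and 34 averaged 1 RPKM or more. Apart from ADAD1, the symbols without a row are other names of genes that were listed. On the log2(RPKM + 1) scale 4 were 2-fold or more higher and 0 were 2-fold or more lower, beside 9.88% and 6.83% of all features. Their median log2 ratio was 0.55, beside 0.17 for all features. By the interval from reads 27 of the 41 lay above 1 and 5 below (34.3% and 15.3% of all), and on halved reads 21 and 4 (22.7% and 9.28%).

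In the nuclear step, DROSHA was at 4.95 RPKM in the IP and at 2.998 RPKM in the Input, a ratio of 1.65 (1.31 to 2.07). DGCR8 was at 4.37 RPKM in the IP and at 2.01 RPKM in the Input, a ratio of 2.17 (1.67 to 2.82). XPO5, the exporter, had 22 and 56 reads, and its ratio of 1.16 (0.675 to 1.93) has an interval that includes 1. In the cytoplasm, DICER1 had a ratio of 1.50 (1.10 to 2.03; halved reads 0.956 to 2.32). PRKRA, for a partner protein of DICER1, was the lowest of the list, at 0.788 RPKM (10 reads) in the IP and at 2.43 RPKM (91 reads) in the Input. It was 3.08-fold lower (1.60 to 6.64), and its log2 value of -0.94 on the scale with the pseudocount fell short of 2-fold.

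AGO2, an effector gene, was at 2.71 RPKM in the IP and at 1.28 RPKM in the Input, a ratio of 2.11 (1.69 to 2.64). The 3 highest of the whole list by log2 ratio, effectors or not, were TUT1, MOV10 and KHSRP. TUT1, a terminal uridylyltransferase gene, had a ratio of 7.49 (4.02 to 14.7). MOV10, for a helicase found with Argonaute, was at 5.17 (3.38 to 8.02). KHSRP, for a protein that promotes processing of some precursors, was at 2.41 (2.21 to 2.63). The 3 lowest were PRKRA, TSN, for translin, at 1.42-fold lower (1.14 to 1.78), and LIN28B, which blocks let-7 maturation, at 1.28-fold lower (1.08 to 1.52). LIN28B was at 9.31 RPKM in the IP and at 11.9 RPKM in the Input. RAN and HNRNPA1 also had intervals below 1, at ratios of 0.850 (0.743 to 0.970) and 0.858 (0.825 to 0.891). The ratios of TARBP2 and SRSF3 were below 1 too, with intervals that include 1. TNRC6A, for a GW182 protein that binds Argonaute, was the other of the 4 genes that were 2-fold or more higher, at 2.64 (2.16 to 3.22). Which genes pass depends on the pseudocount. ZSWIM8 at 3.60 (2.39 to 5.44) and TNRC6B at 2.68 (2.15 to 3.35) had higher ratios than KHSRP. Their log2 values on the scale with the pseudocount, 0.99 and 0.85, fell short of 2-fold.

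**Figure D5:**
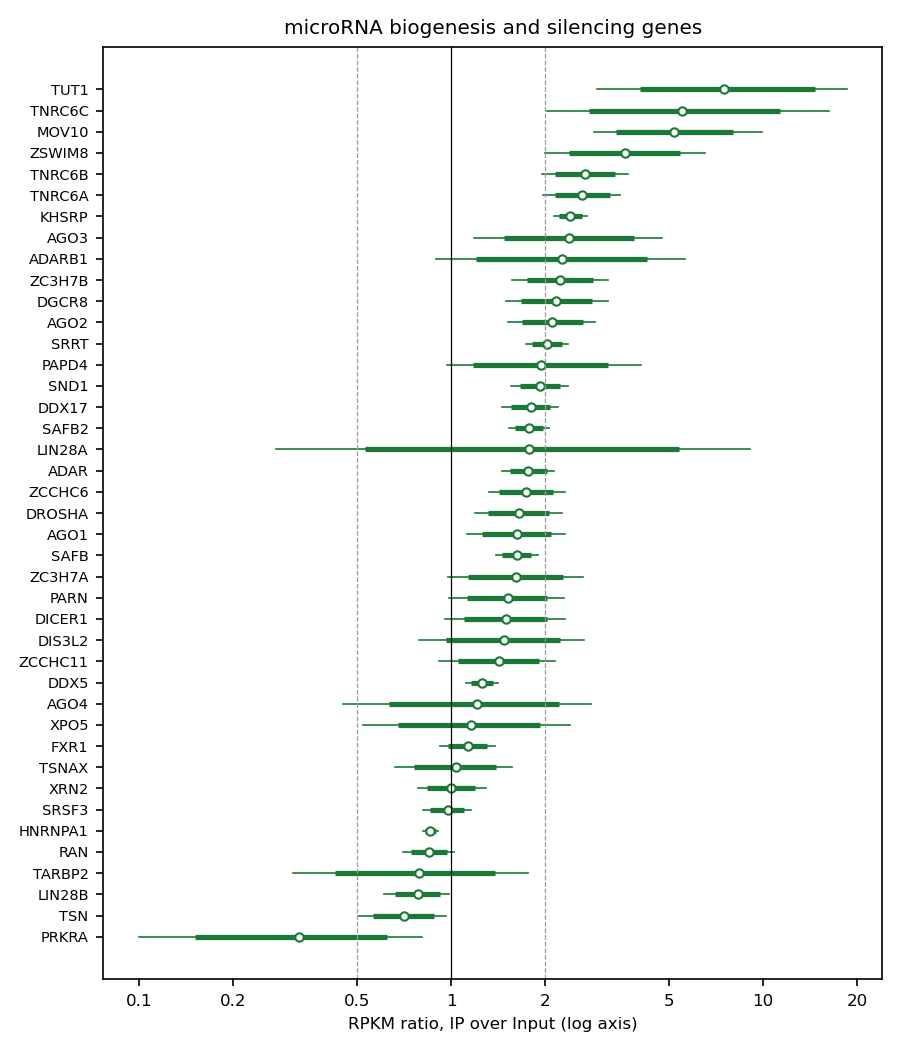
Ratio of IP to Input RPKM (log axis) of the listed biogenesis and silencing genes with 95% intervals from reads (thick) and halved reads (thin), where dashed lines mark 2-fold. TUT1 (7.49) had the highest log2 ratio of those averaging 1 RPKM or more and PRKRA (0.325) the lowest, with DROSHA, AGO2 and DGCR8 between 1.65 and 2.17.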

How the data were processed

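The authors deposited RPKM values of the IP and Input libraries in 1 table, together with log2 fold changes, per the file headers. FastQC 0.12.0 and hg38 are named in the submitters' processing notes, and the aligner and counter were not given in the sources used here. Whole reads and row lengths were solved from both columns, since the deposited log2 values follow reads plus a constant that averages 0.125 reads. Whole reads, within 0.01, came out for 14913 of 14914 features. On data simulated from these recovered reads, depths and lengths, with every length supplied, reads of 14904 of 14904 features were recovered. That run could not test how well annotated lengths match the rows. In the deposited data the IP depth came from 267 of 299 rows without Input reads, whose annotated lengths gave the same value. The Input depth came likewise from 225 of 239 rows without IP reads. Positions are from GENCODE v29. Differences were taken as log2 of (IP + 1)/(Input + 1), which understates the change of low rows, for rows averaging 1 RPKM or more. Other pseudocounts, filters, centring, read minimums and halved reads were tried. No test was run, since each group has 1 library. Members and lists were chosen with earlier results of these data known. By rule the text names every host row, hairpin rows with 20 reads or more or among the 8 highest or 8 lowest, the transcripts that hold them, the 3 highest and 3 lowest pathway genes, and DROSHA, DGCR8, XPO5, DICER1 and AGO2. MIR122, MIR29A and LINC-PINT, and the genes that overlap host rows, were named after their values were seen. So were the pathway genes TNRC6A, ZSWIM8, TNRC6B, RAN, HNRNPA1, TARBP2 and SRSF3. Python 3.11.15 and SciPy 1.17.1 were used.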

Additional observations from a re-analysis of the deposited data

How the results depend on the processing

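The 7 hairpin-named rows that were 2-fold higher became 0 among the 10 with 20 reads or more. They also became 0 among the 9 at 1 CPM or more in both libraries (chosen after seeing the data). The median log2 ratio of hairpin-named rows changed sign in both sets, from 0.62 to -0.10 and -0.05, since the rows with few reads were left out. It was 1.54 without rows in an exon of a listed feature. The 3 lower rows became 1, MIR3609, without those exonic rows. With a pseudocount of 5 RPKM and after centring, the 2 higher host rows became 0 and 0. Their median of 1.02 became 1.32 and 0.36 with pseudocounts of 0.1 and 5 RPKM and 0.36 over all 11 host rows, and a filter of 5 RPKM left no host row. Over all features, 976 were higher, or 1830 and 186 when the pseudocount was 0.1 or 5 RPKM, 327 when rows had to average 5 RPKM and 632 when they had to hold 20 reads. Over all features 675 were lower, or 1023 and 295 with those pseudocounts and 407 with that filter. The 4 higher pathway genes became 10 and 1 with those pseudocounts and 1 with that filter, and the 0 lower became 1 with a pseudocount of 0.1 RPKM and 1 after centring. On halved reads (chosen after seeing the data), the hairpin-named rows with an interval above 1 went from 9 to 3 of 21 and below 1 from 4 to 2. Host rows went from 5 to 3 of 11 and from 1 to 0, as halving widens intervals. Of all features with reads, 34.3% lay above 1 and 15.3% below, and on halved reads 22.7% and 9.28%. Except where stated, the cause was not tested. After centring, the log2 ratio of MIR17HG went from 0.11 to -0.06 and that of MIR302B from 0.12 to -0.05, and no other single row changed sign under centring or the pseudocounts. Rows without Input reads depend on the pseudocount: MIR6819, at 5.55, became 8.84 and 3.35. No paired analysis was possible because each group has 1 library and the labels carry no replicate numbers. Depth limits the rows, since 15 of the 32 had under 20 reads.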
